A study of Homo sapiens with 12 samples.

Results

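Amino acid transporters were examined as the genes of 7 solute carrier families, SLC1A, SLC3A, SLC6A, SLC7A, SLC36A, SLC38A and SLC43A. Every gene was taken whose symbol in the array annotation opens with one of these names followed by a number, and each was read from the probe set of highest mean signal annotated to that gene alone. This gave 62 of 19777 genes with a probe set of their own, of which 56 encode transporters and 6 are antisense or opposite-strand genes named after them. Of the 62, 41 (39 transporters and 2 antisense or opposite-strand genes) had a mean signal at or above 33.57, the 40th percentile of all probe sets, and were tested. The other 21 were dim and are given by level alone. The study profiled 2 human cancer cell lines on 12 Affymetrix U133 Plus 2.0 arrays: A549, from a lung adenocarcinoma and grown in RPMI1640, and SW780, from a bladder carcinoma and grown in Leibovitz L-15 medium. All cells received an siRNA duplex at 100 nM in a lipid reagent for 24 h, so no group was left untransfected. The duplex was siKDM3A, against the histone demethylase KDM3A, or 1 of 2 controls, siEGFP and siFFluc, whose names point to reporter proteins. Each of the 6 groups of line and siRNA had 2 arrays. The labels name 1 duplex per target, and they leave unsaid whether the replicates of a group were grown apart. All p-values therefore reflect variation among these arrays alone, and part or all of it could be technical.

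Amino acid carriers of the cell surface work by exchange, by sodium-coupled uptake or by facilitated diffusion. The light chains of the SLC7 family reach the membrane in a pair with a heavy chain, SLC3A2 (CD98) or SLC3A1: SLC7A5 with SLC3A2 takes up leucine and other large neutral amino acids in exchange for glutamine, and SLC7A11 with SLC3A2 takes up cystine in exchange for glutamate and so feeds glutathione synthesis. SLC1A5, SLC38A1 and SLC38A2 bring in glutamine and small neutral amino acids, SLC7A1 brings in arginine and lysine, and SLC36A1, SLC38A7 and SLC38A9 sit on lysosomes, where amino acids are released to the cytosol and sensed by mTORC1. Cancer lines are known for high SLC7A5, SLC3A2, SLC1A5 and SLC7A11. KDM3A removes methyl groups from histone H3 lysines (H3K9), a mark of silent chromatin.

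Because 4 members (SLC36A1, SLC38A1, SLC38A6 and SLC38A10) fell under siKDM3A in each line, the sequence before their start sites is shown. Each is the 250 bases upstream of a RefSeq transcription start in GRCh38.p14, written 5′ to 3′ on the gene's strand. Capitals mark matches on either strand to the E-box CACGTG or to the GC box GGGCGG. SLC36A1 and SLC38A1 have 2 listed starts, and the window with a match is given. The windows are chr5:151447353-151447602 (plus strand) for SLC36A1, chr12:46266517-46266766 (minus) for SLC38A1, chr14:60980995-60981244 (plus) for SLC38A6 and chr17:81295308-81295557 (minus) for SLC38A10.
SLC36A1: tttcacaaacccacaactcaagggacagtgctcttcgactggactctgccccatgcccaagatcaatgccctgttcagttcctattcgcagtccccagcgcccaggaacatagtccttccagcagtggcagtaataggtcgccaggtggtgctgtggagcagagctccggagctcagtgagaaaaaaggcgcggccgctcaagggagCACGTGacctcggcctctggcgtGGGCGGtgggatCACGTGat
SLC38A1: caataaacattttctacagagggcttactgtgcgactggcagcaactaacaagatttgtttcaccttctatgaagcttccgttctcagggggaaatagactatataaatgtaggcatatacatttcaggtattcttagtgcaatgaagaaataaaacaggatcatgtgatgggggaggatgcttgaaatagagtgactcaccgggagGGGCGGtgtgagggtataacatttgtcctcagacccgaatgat
SLC38A6: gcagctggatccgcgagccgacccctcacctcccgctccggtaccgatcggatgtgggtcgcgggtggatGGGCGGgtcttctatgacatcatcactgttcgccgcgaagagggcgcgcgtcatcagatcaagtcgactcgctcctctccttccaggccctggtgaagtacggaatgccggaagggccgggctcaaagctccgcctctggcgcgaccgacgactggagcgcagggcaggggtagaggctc
SLC38A10: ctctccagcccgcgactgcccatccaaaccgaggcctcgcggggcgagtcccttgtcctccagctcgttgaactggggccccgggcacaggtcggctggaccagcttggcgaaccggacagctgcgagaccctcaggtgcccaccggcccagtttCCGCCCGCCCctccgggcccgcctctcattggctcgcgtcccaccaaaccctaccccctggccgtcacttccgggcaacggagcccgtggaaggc
The SLC36A1 window holds 2 E-boxes and a GC box, the SLC38A1 and SLC38A6 windows hold 1 GC box each, and the SLC38A10 window holds 2 overlapping GC boxes on the opposite strand. The table of starts matched 47 of the 62 members. A GC box was found before some start of 33 of these 47 and of 46.2% of all 27305 genes listed, or in 42.6% of all 35116 windows. E-boxes were found for 10 of the 47 and 7.73% of all genes, or 6.34% of windows. The letters TGATGNAA, a C/EBP-ATF response element, were found for 2 of the 47 and 3.89% of all genes, or 3.14% of windows, and TGACNNNGC, the antioxidant response element, for 7 of the 47 and 13.2% of all genes, or 10.9% of windows. Here 1 stretch can match more than 1 pattern. Of the 8 members that fell over both lines together, all 8 held a GC box, as did 25 of the 31 tested members with a window, SLC36A1 and SLC7A5 held an E-box, and SLC7A1 and SLC7A6 held TGACNNNGC. These matches describe the letters of the windows and were not tested.

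The targeted transcript fell in both lines. KDM3A read 693 and 712 on the siKDM3A arrays of A549 against 1299.7 to 1519 on its control arrays, and 197 and 223 against 359 to 433 in SW780. The changes were -0.97 ± 0.10 (adjusted p = 8.34e-05) in A549 and -0.86 ± 0.10 (adjusted p = 2.74e-04) in SW780, on the log2(signal + 16) scale used for all changes below. Signals are MAS5 values scaled to the same trimmed mean of 500.1 on every array, and median signals ran from 50.3 to 59.1. The 3' to 5' ratio of the beta-actin control probe sets separated the siKDM3A arrays from their controls in both lines, at 1.16 and 1.19 against 1.20 to 1.29 in A549 and at 1.51 and 1.61 against 1.39 to 1.44 in SW780, and its part in the results was not tested. The siFFluc replicate 1 array of SW780 stood apart from the other controls of its line for SLC7A5, SLC38A1 and SLC7A6OS. Replicate arrays correlated at 0.982 to 0.989 across all genes. Of 12 detected markers of urothelium, GATA3, KRT13, UPK1A and UPK1B had medians of 11850, 12480, 1871 and 9946 in SW780 against 350.0, 46.0, 34.9 and 621 in A549, while KRT5 had 136 against 5559. The 9 lung markers were mixed, and their summed signal was 509 to 669 in A549 against 719 to 1044 in SW780. NKX2-1, SFTPD, SCGB1A1 and SCGB3A2 were dim. ABCA3 was higher in A549 on every array (150.9 to 226.7 against 6.0 to 33.9), and SFTPB and NAPSA had higher medians there (167.1 against 133.5 and 92.15 against 52.5). LAMP3 was lower in A549 on every array (67.7 to 127.2 against 402.7 to 738.9), and SFTPC had a lower median (43.4 against 93.95). In RNA from a whole culture, fewer cells expressing a gene and less RNA per cell cannot be told apart.

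Signals of different probe sets do not share a scale, so levels are compared here between arrays and not between genes. All members of the SLC3, SLC36 and SLC43 families were above the dimness limit. So were 5 of 7 in SLC1, 10 of 13 transporters in SLC7 and 8 of 11 in SLC38. The SLC6 family, which also holds the carriers of monoamines, creatine, taurine and GABA, had 9 of 18 above it. The dim members had means of 4.53 to 27.1 over 12 arrays and no single value above 61.9. They include the glutamate carrier of astrocytes SLC1A2, the serotonin carrier SLC6A4, the glycine carriers SLC6A5 and SLC6A9, the neutral and cationic amino acid carrier SLC6A14, the glutamine carrier SLC38A3 and the small neutral amino acid carrier SLC7A10. The remaining dim transporters were SLC1A6, SLC6A7, SLC6A12, SLC6A16, SLC6A18, SLC6A20, SLC7A13, SLC7A14, SLC38A4 and SLC38A11. A dim signal here does not show that a transcript is missing.

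**Figure D1:**
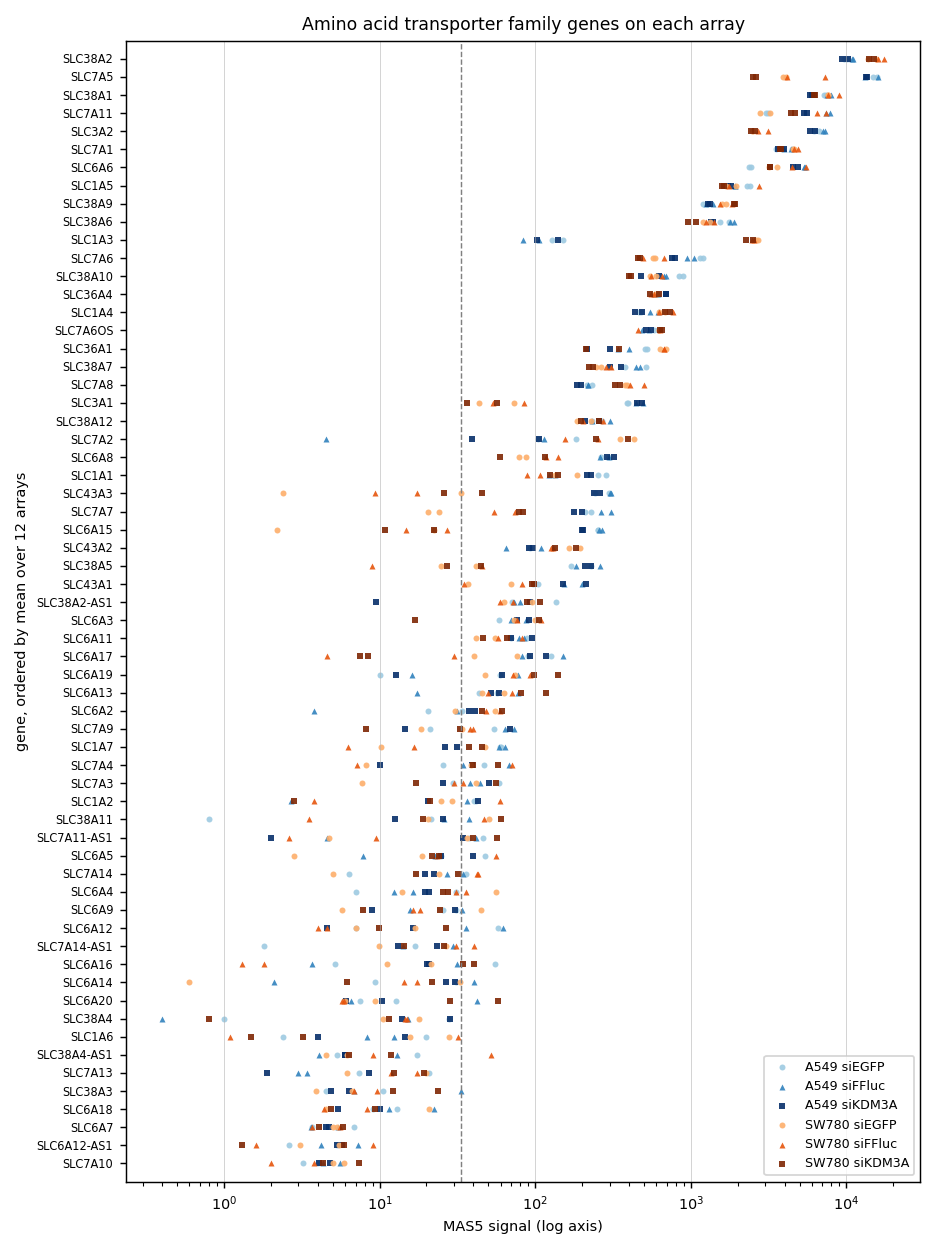
MAS5 signal (log axis) of the 62 genes on each of the 12 arrays, ordered by mean signal, with colour and shape for the 6 groups and a dashed line at the dimness limit of 33.57. Several genes, SLC1A3, SLC43A3 and SLC6A15 among them, split into a block of A549 arrays and a block of SW780 arrays, while SLC7A11 and SLC6A6 spread by siRNA within each line.

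SLC7A11, the cystine light chain xCT, differed between the control siRNAs in both lines, and siKDM3A lay between them. In A549 it read 3136 and 3047 with siEGFP, 7854 and 7373 with siFFluc and 5341 and 5595 with siKDM3A. In SW780 the values were 2781 and 3216 with siEGFP, 7335 and 6474 with siFFluc and 4374 and 4640.4 with siKDM3A. The 3 siRNAs did not overlap in either line: siEGFP was lowest, siFFluc highest and siKDM3A between them. The siFFluc arrays exceeded the siEGFP arrays by 1.30 ± 0.085 (adjusted p = 2.65e-06) in A549 and by 1.20 ± 0.085 (adjusted p = 7.59e-06) in SW780, 2.45-fold and 2.30-fold. Without the siFFluc replicate 1 array the SW780 difference was 1.11 (adjusted p = 7.53e-05). Against the average of both controls siKDM3A gave 0.17 ± 0.074 (adjusted p = 0.163) and -0.011 ± 0.074 (adjusted p = 0.949). With median scaling the former was 0.33 (adjusted p = 0.0229), past the threshold. Against siEGFP alone it was higher, by 0.82 ± 0.085 (adjusted p = 8.97e-05) and 0.59 ± 0.085 (adjusted p = 0.00148), and against siFFluc alone it was lower, at -0.48 ± 0.085 (adjusted p = 0.0036) and -0.61 ± 0.085 (adjusted p = 6.51e-04). On this probe set the sign of the change under siKDM3A followed the choice of control in each line. A second probe set of SLC7A11, with a mean of 4903, gave control differences of 1.22 and 1.04, and siKDM3A was at 1.00 and 0.48 against siEGFP and at -0.22 and -0.55 against siFFluc, in A549 and SW780. The dimmest set, with a mean of 1037, did not show this order. Its control differences were 0.27 and 0.33, and siKDM3A was at -0.044 and -0.38 against siEGFP and at -0.32 and -0.71 against siFFluc, below 0 throughout. These differences of group means on the other sets were chosen after the data were seen and were not tested. The antisense gene SLC7A11-AS1 was dim, between 2.0 and 56.8.

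Its heavy chain SLC3A2 read 6219.6 and 6668 with siEGFP, 7264 and 7025 with siFFluc and 6232 and 5812 with siKDM3A in A549, and 2477 and 2526 with siEGFP, 3137 and 2711 with siFFluc and 2421 and 2598 with siKDM3A in SW780. The siFFluc arrays were the highest in both lines, and the siKDM3A arrays overlapped the siEGFP arrays. Neither the control difference nor the change against both controls passed the threshold for SLC3A2. The former was 0.15 (adjusted p = 0.503) and 0.22 (adjusted p = 0.138), and siKDM3A gave -0.17 (adjusted p = 0.139) in A549, -0.11 (adjusted p = 0.378) in SW780 and -0.14 (adjusted p = 0.0715) over both. Against siFFluc alone SLC3A2 did pass over both lines, at -0.23 ± 0.057 (adjusted p = 0.0137), as it did without siFFluc replicate 2 of SW780, at -0.17 (adjusted p = 0.0114). With quantile normalization it passed in A549, at -0.25 (adjusted p = 0.0286), and over both, at -0.17 (adjusted p = 0.0239).

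SLC6A6, the taurine carrier, showed the same order of controls. It read 2441 and 2362 with siEGFP and 5301 and 5443 with siFFluc in A549, a difference of 1.16 ± 0.096 (adjusted p = 1.59e-05). In SW780 it read 3169 and 3579.8 with siEGFP and 5518 and 4444 with siFFluc, a difference of 0.55 ± 0.096 (adjusted p = 0.00639), which was 0.47 (adjusted p = 0.0552) without siEGFP replicate 1 and 0.40 (adjusted p = 0.0268) without siFFluc replicate 1. On the siKDM3A arrays it read 4865 and 4540.2 in A549, nearer to siFFluc, and 3219.6 and 3248 in SW780, at the level of siEGFP. The siKDM3A arrays lay among the controls in both lines. Its 4 other probe sets are far dimmer, with means of 21.6 to 186, and averaging all kept sets ended the control difference, at 0.25 (adjusted p = 0.571) and 0.014 (adjusted p = 0.975). The glutamate and cysteine carrier SLC1A1 went the other way in A549, 286 and 255 with siEGFP against 134 and 122 with siFFluc, a change of -0.99 ± 0.21 (adjusted p = 0.0229). In SW780 its values were 134 and 187 with siEGFP against 107 and 88.9 with siFFluc, a change of -0.62 ± 0.21 (adjusted p = 0.112). The arrays of the controls did not overlap for SLC1A1 in either line, which is common. Of 14061 genes, siFFluc lay wholly above siEGFP for 3436 and wholly below for 3056 in A549. In SW780 these were 3319 and 3137. The A549 call of SLC1A1 was lost when any of its 4 control arrays was left out, with changes from -1.07 to -0.91. Averaging its probe sets gave -0.54 (adjusted p = 0.608) in A549. Its other probe set above the dimness limit, with a mean of 46.9, gave -0.095 in A549 and 1.38 in SW780.

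In all, 3 of 41 tested members differed between the control siRNAs in A549 (SLC7A11, SLC6A6 and SLC1A1), where 2.92% of 14061 genes did. In SW780 the 3 were SLC7A11, SLC6A6 and SLC7A7, where 5.57% of genes did. SLC7A7, a light chain that exports cationic amino acids, read 20.6 and 23.9 with siEGFP in SW780, below the dimness limit, and 54.3 and 74.1 with siFFluc (1.06 ± 0.23, adjusted p = 0.0229). This call was lost without siEGFP replicate 1, siEGFP replicate 2 or siFFluc replicate 2 (adjusted p from 0.0524 to 0.0828). It was also lost with a pseudocount of 64, 0.57 (adjusted p = 0.0549), with no filter, 1.06 (adjusted p = 0.0521), and with the arrays of SW780 alone, 1.06 (adjusted p = 0.186), so at this level both size and call depend on the settings. The control differences did not pass a test of being unequal in the lines for any of the 41, by limma. Of all genes 0.0213% passed it, and 2 members, SLC6A6 and SLC1A5, had an unadjusted p under 0.05, with adjusted p of 0.171 and 0.347. This last test was chosen after the data were seen.

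**Figure D2:**
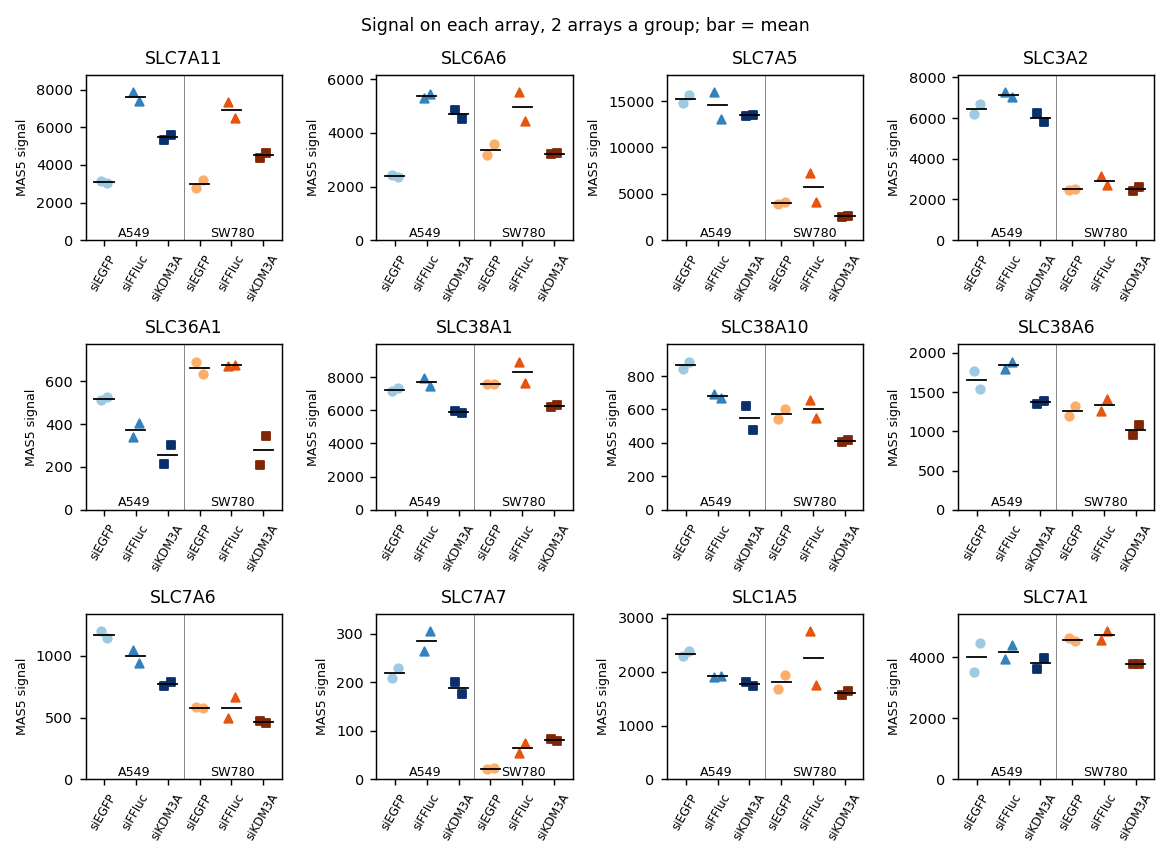
MAS5 signal (linear axis from 0) of 12 members on each array, by siRNA and line, with a bar at the mean of 2 arrays. SLC7A11 and SLC6A6 separate siEGFP from siFFluc in both lines, SLC36A1, SLC38A1 and SLC38A6 are lowest with siKDM3A in both, and 1 siFFluc array of SW780 stands above the rest for SLC7A5 and SLC1A5.

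Under siKDM3A, set against the average of both controls, most called members fell. In A549 5 members fell (SLC36A1, SLC38A10, SLC7A6, SLC38A6 and SLC38A1) and 1 rose (SLC6A6), while 6.35% of all genes were called lower and 5.33% higher. In SW780 7 fell (SLC36A1, SLC7A5, SLC38A10, SLC38A6, SLC38A1, SLC6A6 and SLC7A1) and 1 rose (SLC7A7), against 6.15% lower and 5.68% higher. Over both lines together 8 fell (SLC36A1, SLC38A1, SLC38A10, SLC38A6, SLC7A6, SLC7A5, SLC38A7 and SLC7A1) and 0 rose, against 9.36% lower and 8.86% higher, and 12 of the 41 (29.3%) had an unadjusted p under 0.05 by limma, as 30.6% of all genes did. As shares of the 41, those called in either direction were 14.6% in A549, 19.5% in SW780 and 19.5% over both lines, against 11.7%, 11.8% and 18.2% of all genes. Called in each line in the same direction were 4 members, SLC36A1, SLC38A1, SLC38A6 and SLC38A10. The share of all genes called in this way was not counted, so whether 4 is many cannot be told. The siKDM3A arrays lay above all 4 controls for 2 of the 41 and below all 4 for 11 in A549, and for 6 and 10 in SW780. Of all 14061 genes these were 2395 and 2799 in A549, and 2151 and 1868 in SW780. Such positions are therefore common, and they are given below as description. The median change over the 41 was -0.12 in A549 and -0.011 in SW780, against -0.020 and 0.027 over all genes. The split in A549 depends on the choice of scaling. With quantile normalization all of the calls named for A549 kept their side of the threshold. With every array scaled to its median signal, the median change over all genes there moved to 0.12, and 3 members were called higher and 1 lower. In SW780 that scaling gave 1 higher and 8 lower, and over both lines 0 higher and 6 lower. Without a variance trend SLC38A1 was the only member still called in A549.

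**Figure D3:**
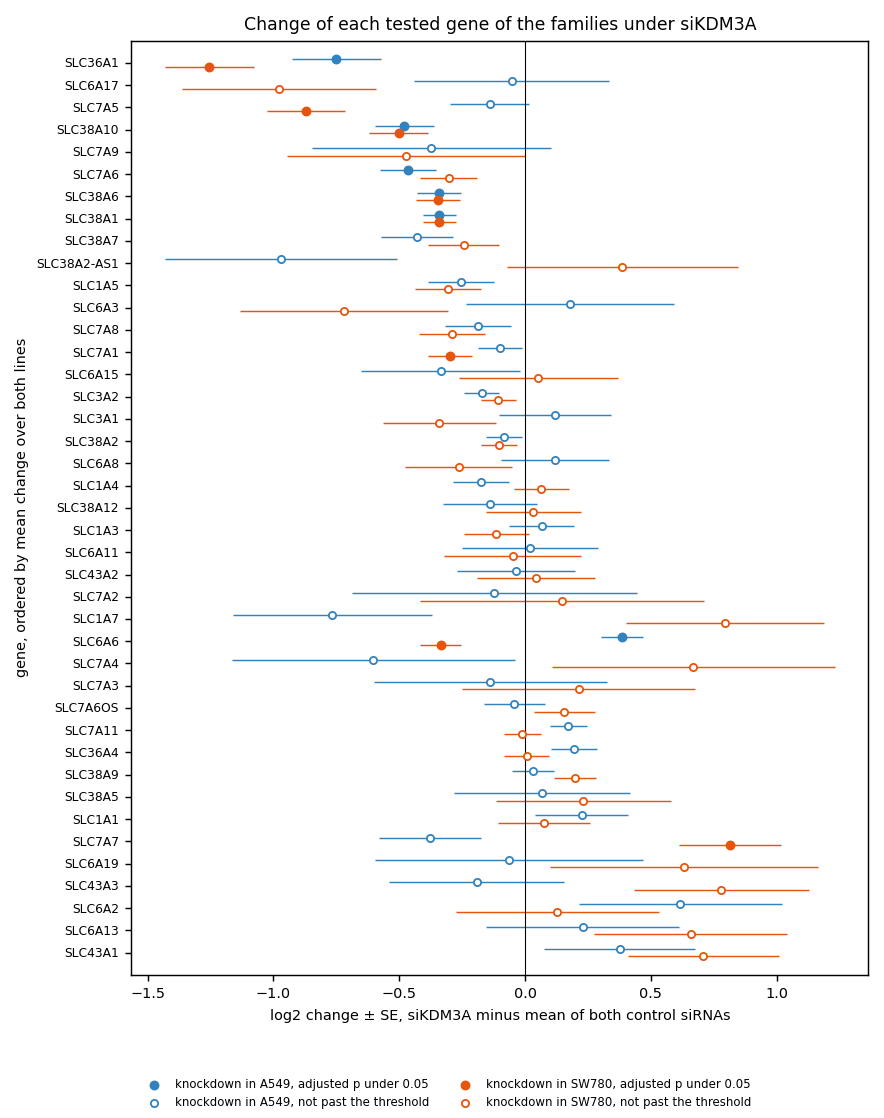
Log2 change ± SE under siKDM3A of the 41 tested genes in A549 (blue) and SW780 (orange), filled where the adjusted p is under 0.05, ordered by the mean over both lines. SLC36A1 leads the falls past the threshold in both lines, and SLC6A6 and SLC7A7 lie on opposite sides of 0 in the 2 lines.

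SLC36A1, the proton-coupled amino acid carrier PAT1 of lysosomes and the cell surface, had the largest called fall in each line. In A549 it read 511 and 525 with siEGFP, 339.8 and 403 with siFFluc and 214 and 301 with siKDM3A. In SW780 the values were 691 and 634 with siEGFP, 671 and 677 with siFFluc and 211 and 346 with siKDM3A. The siKDM3A arrays lay below all 4 controls in both lines, with a wide gap in SW780 and, in A549, siFFluc arrays in between. It fell by 0.75 ± 0.18 (adjusted p = 0.0165) in A549, by 1.25 ± 0.18 (adjusted p = 8.01e-04) in SW780 and by 1.00 ± 0.13 (adjusted p = 1.43e-04) over both, the last being 2.00-fold. In SW780 the call held in each of 24 alternatives, with changes from -1.59 to -0.92. In A549 it was lost against siFFluc alone, -0.52 ± 0.20 (adjusted p = 0.14), and without siFFluc replicate 2, -0.69 (adjusted p = 0.0526) or siKDM3A replicate 1, -0.52 (adjusted p = 0.224). The falls in the lines differed by -0.50 ± 0.25 (adjusted p = 0.31). Its other probe set was dim. The related SLC36A4 read 548 to 691 over the 12 arrays, with changes of 0.20 (adjusted p = 0.202) and 0.0060 (adjusted p = 0.979).

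Of 8 tested SLC38 carriers, 3 fell in A549 and the same 3 fell in SW780, and SLC38A7 fell with them over both lines. Of all genes 6.35% were called lower in A549, 6.15% in SW780 and 9.36% over both. The family was not tested as a set. SLC38A1, a sodium-coupled glutamine carrier of the cell surface, read 5983 and 5822 with siKDM3A in A549 against 7155 and 7338 with siEGFP and 7976 and 7456 with siFFluc. In SW780 it read 6209 and 6308 against 7607 and 7613 with siEGFP and 8925 and 7638 with siFFluc. All siKDM3A arrays lay below all controls of their line, and the siFFluc replicate 1 array of SW780 stood above the other controls. The falls were 0.34 ± 0.066 (adjusted p = 0.00536) and 0.34 ± 0.066 (adjusted p = 0.00544), and without that array the change in SW780 was -0.28 (adjusted p = 0.00433). SLC38A1 was also the member called lower in both lines against each control siRNA on its own. Its call in A549 was lost with median scaling, -0.19 (adjusted p = 0.162), and without siKDM3A replicate 1, -0.36 (adjusted p = 0.0504), or 2, -0.32 (adjusted p = 0.0844). In SW780 it was lost without siKDM3A replicate 1, -0.33 (adjusted p = 0.0553). Its other 2 probe sets above the dimness limit gave -0.36 and -0.33 in A549 and -0.28 and -0.26 in SW780.

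SLC38A6 read 1353 and 1390.3 with siKDM3A in A549 against 1764 and 1537 with siEGFP and 1797 and 1887 with siFFluc, and 955 and 1082 against 1198 and 1319 with siEGFP and 1257 and 1417 with siFFluc in SW780. It lay below all controls in both lines and fell by 0.34 ± 0.087 (adjusted p = 0.0242) and 0.34 ± 0.087 (adjusted p = 0.0225). SLC38A10 read 623 and 477 against 842 and 885 with siEGFP and 692 and 668 with siFFluc in A549, and 403 and 415 against 545 and 600.0 with siEGFP and 655 and 551 with siFFluc in SW780. It too lay below all controls, with falls of 0.48 ± 0.12 (adjusted p = 0.0198) and 0.50 ± 0.12 (adjusted p = 0.0152). This rests on 1 probe set: the next brightest of its 7, with a mean of 441, gave 0.069 and -0.15, and averaging the kept sets gave -0.20 (adjusted p = 0.575) and 0.0085 (adjusted p = 0.987). With median scaling the A549 calls of SLC38A6 and SLC38A10 were lost, at -0.19 (adjusted p = 0.212) and -0.33 (adjusted p = 0.09).

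Single arrays also decided these calls. In A549 SLC38A6 lost its call without siEGFP replicate 1, siFFluc replicate 2 or either siKDM3A array (adjusted p from 0.068 to 0.179), and in SW780 without siEGFP replicate 2 or siKDM3A replicate 1 (0.0723 to 0.225). SLC38A10 lost its call in A549 without siEGFP replicate 2, siFFluc replicate 1 or siKDM3A replicate 2 (0.0547 to 0.292), and in SW780 without either siKDM3A array (0.0824 and 0.108). Over both lines together SLC38A1, SLC38A6 and SLC36A1 kept their calls in each of 23 alternatives, with all 12 arrays left out in turn among them. SLC38A10 kept its call in 22 and lost it with averaged probe sets, -0.098 (adjusted p = 0.686). The joint changes were -0.34 ± 0.046 (adjusted p = 2.86e-04) for SLC38A1, -0.34 ± 0.062 (adjusted p = 0.00202) for SLC38A6 and -0.49 ± 0.083 (adjusted p = 0.00134) for SLC38A10.

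SLC38A7, which exports glutamine from lysosomes, read 355 and 304 with siKDM3A in A549 against 375 to 514 on the controls, and 223 and 236 against 246 to 306 in SW780. It lay below all controls in both lines. The change was -0.43 (adjusted p = 0.0709) in A549 and -0.24 (adjusted p = 0.311) in SW780, not past the threshold, and -0.34 ± 0.10 (adjusted p = 0.0348) over both. That joint call was lost when any of 8 arrays was left out: siEGFP replicate 2, either siFFluc and either siKDM3A array of A549, and siEGFP replicate 2 and either siKDM3A array of SW780 (adjusted p from 0.055 to 0.158), and with averaged probe sets, -0.23 (adjusted p = 0.0953). Quantile normalization, median scaling, no filter and siEGFP alone ended it too, so it was lost in 13 of 23 alternatives. SLC38A9, the lysosomal arginine sensor of mTORC1, read 1321 and 1283 with siKDM3A in A549 and 1911 and 1893 in SW780. These lay among the controls in A549 (1190.2 to 1387) and above them in SW780 (1538 to 1849), with changes of 0.031 (adjusted p = 0.873) and 0.20 (adjusted p = 0.152). SLC38A2, the glutamine carrier induced when amino acids run short, gave -0.084 (adjusted p = 0.523) and -0.10 (adjusted p = 0.396). SLC38A5, a glutamine and histidine carrier, gave 0.067 (adjusted p = 0.94) and 0.23 (adjusted p = 0.735), and SLC38A12 gave -0.14 (adjusted p = 0.717) and 0.033 (adjusted p = 0.941).

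Among 6 tested light chains, SLC7A6 fell in A549 and SLC7A5 in SW780. SLC7A5, the leucine light chain LAT1, read 3916 and 4096 with siEGFP in SW780, 7279.5 and 4172 with siFFluc and 2509.9 and 2620.0 with siKDM3A. Both siKDM3A arrays lay below all controls, and siFFluc replicate 1 stood far above the other 3. The fall was 0.87 ± 0.16 (adjusted p = 0.00354). Without siFFluc replicate 1 the change was -0.67 (adjusted p = 2.77e-04), and against siEGFP alone -0.64 ± 0.18 (adjusted p = 0.0552), which misses the threshold. In A549 SLC7A5 read 14800.0 and 15685 with siEGFP, 15950.0 and 13110.0 with siFFluc and 13416 and 13512 with siKDM3A. The groups overlapped, and the change was -0.14 ± 0.16 (adjusted p = 0.644), or 0.014 with median scaling. The responses of the lines differed by -0.73 ± 0.22 (adjusted p = 0.0978), which missed the threshold. Without siFFluc replicate 1 of SW780 the difference was -0.53 (adjusted p = 0.0182), without siFFluc replicate 2 -0.93 (adjusted p = 0.00137) and with median scaling -0.99 (adjusted p = 0.0202), all past it. Over both lines the change was -0.51 ± 0.11 (adjusted p = 0.00676), lost against siEGFP alone, -0.41 (adjusted p = 0.0535), and without a variance trend, -0.51 (adjusted p = 0.0524). Pseudogenes of SLC7A5 are read by probe sets shared with other genes and were not used here.

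SLC7A6, a light chain that exchanges cationic for neutral amino acids, read 760.1 and 793 with siKDM3A in A549 against 1199 and 1142 with siEGFP and 1049.8 and 942 with siFFluc. In SW780 it read 472 and 457 against 585 and 574 with siEGFP and 495 and 669 with siFFluc. The siKDM3A arrays were lowest in both lines. It fell by 0.47 ± 0.11 (adjusted p = 0.0175) in A549, where the call was lost without siFFluc replicate 1 or either siKDM3A array (adjusted p from 0.058 to 0.148) and with median scaling, -0.31 (adjusted p = 0.0596). The change in SW780 was -0.30 ± 0.11 (adjusted p = 0.101) and over both lines -0.39 ± 0.079 (adjusted p = 0.00463), a call that held in each of 23 alternatives. Its 3 probe sets gave -0.47, -0.46 and -0.54 in A549 and -0.30, -0.35 and -0.27 in SW780. SLC7A8, a further light chain for neutral amino acids, gave -0.19 (adjusted p = 0.42) and -0.29 (adjusted p = 0.187), and SLC7A9, the cystine light chain of kidney and gut, gave -0.37 (adjusted p = 0.696) and -0.47 (adjusted p = 0.587) at signals of 8.2 to 73.1.

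SLC7A7 rose under siKDM3A in SW780 from a low level. It read 83.3 and 78.8 with siKDM3A there against 20.6 and 23.9 with siEGFP and 54.3 and 74.1 with siFFluc. The siKDM3A arrays lay above all controls but close to siFFluc. The change was 0.82 ± 0.20 (adjusted p = 0.0211), with 1.34 ± 0.23 (adjusted p = 0.0053) against siEGFP alone and 0.29 ± 0.23 (adjusted p = 0.472) against siFFluc alone. Leaving out either siKDM3A array ended the call (adjusted p of 0.088 and 0.117), as did fitting the arrays of SW780 alone, 0.82 (adjusted p = 0.156). In A549 it averaged 188 ± 16.5 (SD, n = 2) with siKDM3A against 209 and 229 with siEGFP and 265 and 305 with siFFluc, below all controls, with -0.38 ± 0.20 (adjusted p = 0.277). The responses of the lines differed by 1.19 ± 0.29 (adjusted p = 0.0476). This difference was lost when any 1 array other than the siFFluc arrays of SW780 was left out (10 of 12 arrays, adjusted p from 0.0654 to 0.214). It was also lost with quantile normalization, 1.02 (adjusted p = 0.0659), and against siEGFP alone, 1.54 (adjusted p = 0.0615), or siFFluc alone, 0.84 (adjusted p = 0.189).

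SLC6A6 also responded differently in the lines. Against the average of the controls it rose by 0.39 ± 0.083 (adjusted p = 0.00994) in A549 and fell by 0.34 ± 0.083 (adjusted p = 0.0202) in SW780, and the responses differed by -0.72 ± 0.12 (adjusted p = 0.0098). In A549, where the siKDM3A arrays lay between siEGFP and siFFluc, the change was 0.96 ± 0.096 (adjusted p = 5.83e-05) against siEGFP alone and -0.19 ± 0.096 (adjusted p = 0.252) against siFFluc alone. In SW780 these were -0.058 ± 0.096 (adjusted p = 0.797) and -0.61 ± 0.096 (adjusted p = 0.00126). The A549 call was lost without either siKDM3A array (adjusted p of 0.0565 and 0.13), and the SW780 call without siEGFP replicate 2 or either siKDM3A array (0.0655 to 0.125). The difference between lines was lost without either siKDM3A array of A549 or siKDM3A replicate 2 of SW780 (0.0522 to 0.072). Averaging the probe sets ended all of these calls: SLC6A6 then gave 0.15 (adjusted p = 0.555) in A549, -0.32 (adjusted p = 0.145) in SW780 and a difference of -0.46 (adjusted p = 0.226). Without a variance trend they ended too, the difference at -0.72 (adjusted p = 0.0796), and against siFFluc alone the difference was -0.42 (adjusted p = 0.119). SLC6A6 and SLC7A7 were the 2 of 41 members that differed in response, where 2.75% of all genes did.

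Of 4 tested cationic amino acid transporters, SLC7A1 fell in SW780. This arginine carrier read 3790.1 and 3762 with siKDM3A against 4612 and 4536 with siEGFP and 4576 and 4844 with siFFluc. Both lay below all controls, and the fall was 0.30 ± 0.087 (adjusted p = 0.0447). In A549 it read 3627 and 3970.1 against 3513 and 4478 with siEGFP and 3955 and 4395 with siFFluc, which overlap, with -0.099 ± 0.087 (adjusted p = 0.54). Over both lines the change was -0.20 ± 0.062 (adjusted p = 0.0422). The SW780 call was lost when any of 9 arrays was left out: either siFFluc and either siKDM3A array of A549, and in SW780 either siEGFP or siKDM3A array or siFFluc replicate 2 (adjusted p from 0.0554 to 0.195). The joint call was lost without siEGFP or siFFluc replicate 2 or either siKDM3A array of A549, or without either siEGFP or siKDM3A array or siFFluc replicate 2 of SW780 (0.0502 to 0.19). Averaged probe sets ended both, at -0.12 (adjusted p = 0.489) and -0.19 (adjusted p = 0.082), as did no filter and no variance trend. The SW780 call was also lost with a pseudocount of 1, quantile normalization or either control siRNA alone. The joint call was also lost with median scaling or siEGFP alone. In all, the SW780 call was lost in 16 of 24 alternatives and the joint call in 14 of 23. SLC7A2, SLC7A3 and SLC7A4 gave -0.12, -0.14 and -0.60 in A549 and 0.15, 0.21 and 0.67 in SW780, with adjusted p from 0.506 to 0.932.

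Among the 5 tested SLC1 carriers 0 passed the threshold by limma in either line. The count at an unadjusted p under 0.05 was 0 in A549 and 1 in SW780. SLC1A5, the neutral amino acid exchanger ASCT2 that brings in glutamine, read 2283 and 2391 with siEGFP, 1907 and 1923 with siFFluc and 1809.6 and 1736 with siKDM3A in A549. In SW780 it read 1672 and 1939.8 with siEGFP, 2750.0 and 1757 with siFFluc and 1576 and 1633 with siKDM3A. The siKDM3A arrays were the lowest in both lines, and siFFluc replicate 1 was the highest array of SW780. The changes were -0.25 ± 0.13 (adjusted p = 0.259), -0.31 ± 0.13 (adjusted p = 0.16) and, over both, -0.28 ± 0.093 (adjusted p = 0.0535). These passed in some alternatives. Without siFFluc replicate 1 or replicate 2 of SW780 the joint change was -0.20 (adjusted p = 0.0123) or -0.36 (adjusted p = 2.89e-04), and the change in SW780 without replicate 2 was -0.47 (adjusted p = 0.00112). The change in A549 then passed too, with adjusted p of 0.0225 and 0.0221. With the arrays of A549 alone the change there was -0.25 (adjusted p = 0.0148), and the joint change was -0.27 (adjusted p = 0.0468) with a pseudocount of 64 and -0.28 (adjusted p = 0.0455) with a stricter filter. The glutamate carrier SLC1A3 gave 0.066 (adjusted p = 0.815) and -0.11 (adjusted p = 0.636), the neutral carrier SLC1A4 -0.18 (adjusted p = 0.37) and 0.065 (adjusted p = 0.77), and SLC1A1 0.22 (adjusted p = 0.503) and 0.076 (adjusted p = 0.849). Against siFFluc alone SLC1A1 was higher with siKDM3A in A549, by 0.72 ± 0.21 (adjusted p = 0.0492), and it was -0.27 ± 0.21 (adjusted p = 0.513) against siEGFP alone. SLC1A7 gave -0.77 (adjusted p = 0.254) and 0.79 (adjusted p = 0.229) at signals of 6.3 to 63.9.

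The other 8 tested SLC6 carriers were not called in either line, with adjusted p from 0.13 to 0.976. The creatine carrier SLC6A8 gave 0.12 (adjusted p = 0.798) and -0.26 (adjusted p = 0.487), and it shares 3 further probe sets with its pseudogenes. SLC6A15, a carrier of branched-chain amino acids and proline, gave -0.34 (adjusted p = 0.574) and 0.052 (adjusted p = 0.945), and SLC6A17, a neuronal vesicle carrier of neutral amino acids, gave -0.053 (adjusted p = 0.958) and -0.98 (adjusted p = 0.13). The noradrenaline and dopamine carriers SLC6A2 and SLC6A3, the GABA carriers SLC6A11 and SLC6A13 and the kidney and gut carrier SLC6A19 had 12-array means of 39.1 to 78.0. Of the SLC43 family, SLC43A1, a facilitative carrier of large neutral amino acids, read 97.9 and 95.5 with siKDM3A in SW780 against 34.7 to 82.3 on the controls, above all of them, with 0.71 ± 0.30 (adjusted p = 0.158). In A549 it gave 0.38 (adjusted p = 0.492). SLC43A2 gave -0.036 (adjusted p = 0.953) and 0.043 (adjusted p = 0.939). SLC43A3, which carries purine bases, gave -0.19 (adjusted p = 0.798) and, below or near the dimness limit in SW780, 0.78 (adjusted p = 0.179). The heavy chain SLC3A1 gave 0.12 (adjusted p = 0.807) and -0.34 (adjusted p = 0.376).

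The choice of control changed which members were called. In A549 6 members were called against siEGFP alone, where 8.04% of all genes were, and 4 against siFFluc alone, where 10.0% were. Called in the same direction against both was 1, SLC38A1, and called in opposite directions was 1, SLC7A11. In SW780 4 members were called against siEGFP alone (6.19% of genes) and 7 against siFFluc alone (14.2%). Here 2 were called in the same direction, SLC36A1 and SLC38A1, and SLC7A11 again in opposite directions. Over both lines together 8 members were called against siEGFP alone (12.7% of genes) and 13 against siFFluc alone (18.3%). Among these SLC7A6, SLC38A10, SLC36A1, SLC38A6 and SLC38A1 were lower against each control, and SLC7A11 and SLC6A6 were higher against siEGFP and lower against siFFluc. These comparisons share the siKDM3A arrays.

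**Figure D4:**
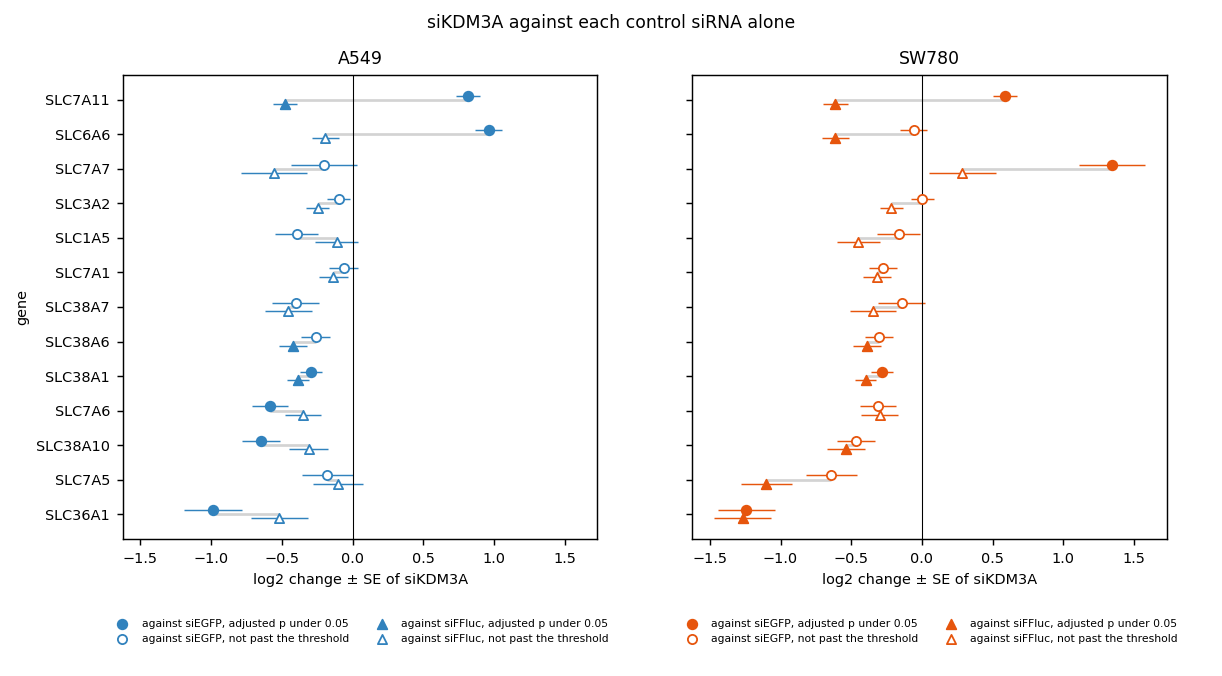
Log2 change ± SE of siKDM3A against siEGFP alone (circles) and against siFFluc alone (triangles) for 13 members in each line, filled where the adjusted p is under 0.05. SLC7A11 changes sign with the control in both lines, while SLC36A1, SLC38A1, SLC38A6, SLC38A10, SLC7A6 and SLC7A5 stay below 0.

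The lines differed in many transporters, as they did in most genes: 65.9% of the 41 were called, against 68.9% of all genes. On the control arrays 11 of 41 members were higher in SW780 and 16 lower, where 30.1% and 38.8% of all genes were. Line and medium cannot be told apart here, and the media differ in their amino acids. Of the 41, 8 had a control mean under the dimness limit in 1 of the lines, and 5 of the 27 calls were among these (1 higher, 4 lower). Such members had to differ to be tested, so the counts are a description, and these members are given below without a test. SLC1A3, a sodium-coupled glutamate and aspartate carrier, read 2469 to 2685 on the control arrays of SW780 against 83.9 to 151 on those of A549, a difference of 4.32 ± 0.10 (adjusted p = 7.18e-13). The arginine carrier SLC7A2 read 156 to 430.1 on the control arrays of SW780 against 4.50 to 182 on those of A549, which overlap, a difference of 1.72 ± 0.46 (adjusted p = 0.00467). The light chain SLC7A8 read 376 to 503 against 215 to 232, a difference of 0.87 ± 0.11 (adjusted p = 7.68e-06). This call held in each of 21 alternatives, with differences from 0.45 to 1.06. Its other probe sets above the dimness limit, with means of 184.6 and 178.5, gave smaller differences of 0.2413 and 0.2357. SLC36A1 was higher in SW780 by 0.59 ± 0.14 (adjusted p = 0.00251). The noradrenaline carrier SLC6A2 read 30.4 to 59.4 against 3.80 to 33.9, overlapping and under the limit in A549. Its difference was 0.81, and 0.39 to 1.38 with the other pseudocounts.

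In the other direction, SLC43A3 read 2.40 to 33.5 on the control arrays of SW780 against 242 to 308 on those of A549, a difference of -3.35. SLC6A15 read 2.20 to 27.0 against 252 to 269.6, a difference of -3.15. SLC38A5 read 8.90 to 45.8 against 169.6 to 260.1, a difference of -2.36. The SW780 means of these 3 were under the dimness limit, so the size depends on the pseudocount: with 1 or 64 in place of 16, SLC43A3 ran from -4.56 to -2.15, SLC6A15 from -4.27 to -2.01 and SLC38A5 from -2.96 to -1.55. The heavy chain SLC3A1 read 43.2 to 85.2 against 389.7 to 492 (-2.51 ± 0.18, adjusted p = 4.13e-08). SLC7A7 read 20.6 to 74.1 against 209 to 305 (-2.27 ± 0.17, adjusted p = 4.34e-08), and ran from -2.69 to -1.58 with the other pseudocounts. None of these 5, chosen for the largest differences, overlapped between the lines. Of all 14061 genes, the control arrays of SW780 lay wholly above those of A549 for 3552 and wholly below for 4754. The partners of the leucine exchanger were both lower in SW780: SLC7A5 differed by -1.66 ± 0.13 (adjusted p = 7.14e-08) and SLC3A2 by -1.32 ± 0.057 (adjusted p = 2.21e-10). SLC7A11 gave -0.095 ± 0.060 (adjusted p = 0.179) and SLC1A5 -0.088 ± 0.11 (adjusted p = 0.489), so neither passed the threshold between the lines.

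**Figure D5:**
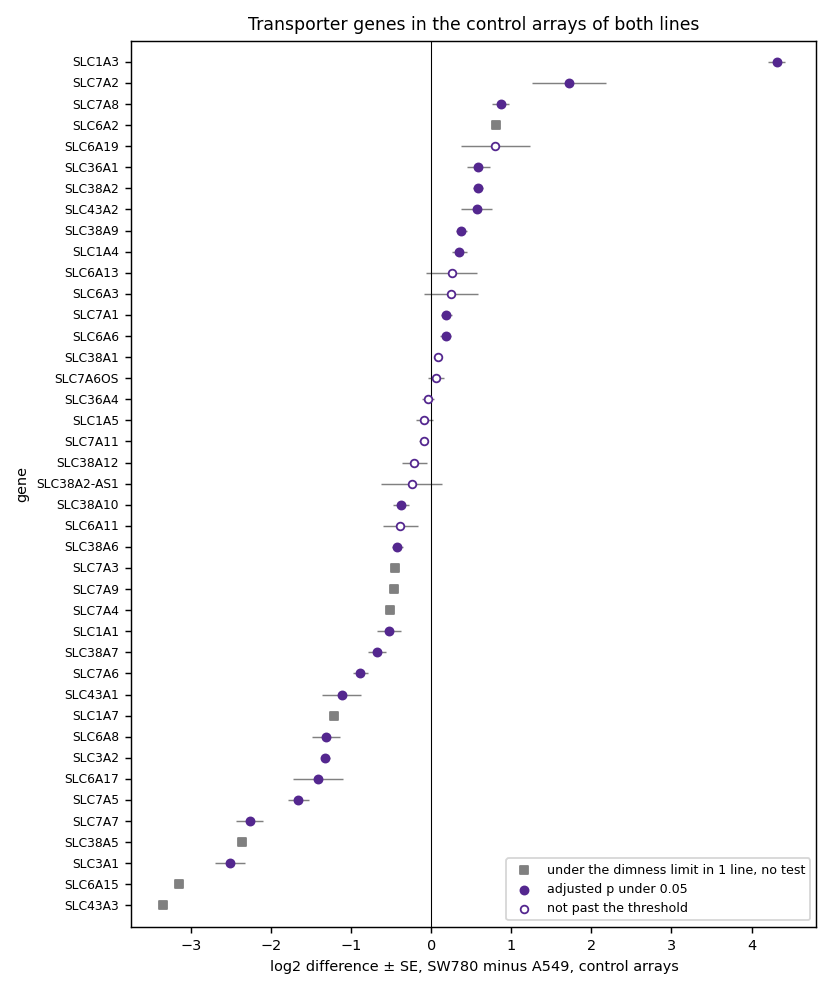
Log2 difference ± SE between the control arrays of SW780 and A549 for the 41 tested genes, filled where the adjusted p is under 0.05, with grey squares (no error or test) for the 8 under the dimness limit in 1 line. SLC1A3 stands alone at the high end with 4.32, and SLC43A3, SLC6A15, SLC3A1, SLC38A5 and SLC7A7 form the low end between -3.35 and -2.27.

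The other genes of amino acid supply were taken from 6 lists chosen by function. The counts below stand against 5.33% of all genes called higher and 6.35% lower in A549, and 5.68% and 6.15% in SW780. Of 25 tested genes of amino acid synthesis and the stress response, the serine synthesis enzyme PSAT1 fell in A549, at -0.44 (adjusted p = 0.00294). In SW780 3 fell, and these were also serine and glycine enzymes: PHGDH at -0.46 (adjusted p = 0.0049), SHMT2 at -0.22 (adjusted p = 0.0362) and PSAT1 at -0.27 (adjusted p = 0.0432). A further enzyme of serine synthesis, PSPH, rose there, at 0.47 (adjusted p = 0.016), with the stress genes TRIB3, at 0.28 (adjusted p = 0.0219), and ATF4, at 0.25 (adjusted p = 0.0233). The median change of the list was -0.028 in A549 and 0.10 in SW780. Of 17 cytosolic aminoacyl-tRNA synthetases, which load tRNAs with amino acids, EPRS1 fell in A549, at -0.29 (adjusted p = 0.0106). There 2 of the 17 (11.8%) had an unadjusted p under 0.05 by limma, against 25.4% of all genes. In SW780 6 fell and 0 rose, and 9 (52.9%) had an unadjusted p under 0.05 by limma, against 25.7% of all genes. The 6 were VARS1 at -0.72 (adjusted p = 0.00146), WARS1 at -0.38 (adjusted p = 0.00238), IARS1 at -0.32 (adjusted p = 0.00606), FARSA at -0.41 (adjusted p = 0.0164), AARS1 at -0.29 (adjusted p = 0.0396) and CARS1 at -0.20 (adjusted p = 0.0458). Their medians were -0.043 and -0.17. The lists are described by counts and medians, against -0.020 and 0.027 over all genes, and were not tested as sets. Over the 6 lists the share with an unadjusted p under 0.05 ran from 11.8% to 42.9% in A549. In SW780 it ran from 6.67% to 58.3%, the highest being that of glutamine and glutamate use.

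Of 14 genes of glutathione and thiol reduction, TXNRD1, the thioredoxin reductase, fell in both lines. It read 18378 and 19433 with siKDM3A in A549 against 23911 to 26121 on the controls, and 13452 and 12342 against 16053 to 23872 in SW780. All siKDM3A arrays were below all controls, and the changes were -0.40 ± 0.073 (adjusted p = 0.00337) and -0.63 ± 0.073 (adjusted p = 2.10e-04). Glutathione reductase, GSR, fell in SW780, at -0.55 (adjusted p = 0.00962), and without siFFluc replicate 1, its highest control array there, at -0.42 (adjusted p = 0.00662). The subunits of the enzyme that joins cysteine to glutamate, GCLC and GCLM, gave 0.066 (adjusted p = 0.51) and 0.23 (adjusted p = 0.0854) in A549 and -0.16 (adjusted p = 0.0737) and -0.18 (adjusted p = 0.189) in SW780. The list had medians of 0.12 and 0.055. Of 33 genes that pass amino acid levels to mTORC1, LAMTOR3, SESN1 and SESN3 rose and CASTOR1 fell in A549, at 0.54 (adjusted p = 3.97e-04), 0.45 (adjusted p = 0.0205), 0.59 (adjusted p = 0.042) and -0.79 (adjusted p = 0.0131). In SW780 LAMTOR3 and SESN1 rose, at 0.36 (adjusted p = 0.00601) and 0.49 (adjusted p = 0.0131), while SESN3 and SEC13 fell, at -0.70 (adjusted p = 0.0194) and -0.21 (adjusted p = 0.0367). SESN3 therefore passed in opposite directions in the lines, and its responses differed by -1.29 ± 0.24 (adjusted p = 0.0217).

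Of 12 genes of glutamine and glutamate use, the nucleotide enzymes CTPS1 and GMPS rose in A549, at 0.42 (adjusted p = 6.92e-04) and 0.25 (adjusted p = 0.00917), and PFAS fell in SW780, at -0.69 (adjusted p = 6.61e-04). Of 15 tested transporters of amino acids and peptides in other families, SLC15A4 fell in both lines. This carrier of histidine and peptides in lysosomes read 906 and 926 with siKDM3A in A549 against 1656 to 1752 on the controls, and 507 and 522 against 649 to 786 in SW780. The groups did not overlap, and the falls were 0.88 ± 0.075 (adjusted p = 1.50e-05) and 0.45 ± 0.075 (adjusted p = 0.00228). The remaining 14 were not called in either line. Of the calls in these 6 lists, 3 of 10 in A549 (CTPS1, LAMTOR3 and SLC15A4) and 6 of 20 in SW780 (PFAS, PHGDH, SLC15A4, TXNRD1, VARS1 and WARS1) held when each array was left out in turn, a check added after the data were seen. Without siFFluc replicate 1 of SW780, AARS1 lost its call there, at -0.26 (adjusted p = 0.0644), and the other 19 kept theirs. Medians of these last 2 lists were 8.71e-04 and -0.087 in A549 and -0.025 and -0.057 in SW780.

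Of the 6 antisense or opposite-strand genes, SLC38A2-AS1 and SLC7A6OS passed the dimness limit and were not called in either line. SLC7A6OS gave -0.042 (adjusted p = 0.883) and 0.16 (adjusted p = 0.466), and SLC38A2-AS1 gave -0.97 (adjusted p = 0.21) and 0.39 (adjusted p = 0.655). The values of SLC38A2-AS1 spread widely between replicates, with 92.9 and 9.50 on the siKDM3A arrays of A549 and 136 and 71.4 on its siEGFP arrays. SLC38A4-AS1, SLC6A12-AS1, SLC7A14-AS1 and SLC7A11-AS1 were dim.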

How the data were processed

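The 12 arrays were Affymetrix U133 Plus 2.0 arrays. The deposited values are signal intensities on a linear scale that the authors computed with MAS5, per the submitters' processing notes, with no version stated; each array has a trimmed mean of 500.1. Probe sets were named from the platform annotation and checked against RefSeq (GRCh38.p14): of 54613, 41091 carried 1 symbol, 1801 several and 11721 none. Log2(signal + 16) was fitted with limma 3.58.1 in R 4.3.3 as 6 group means with a trended prior variance (lmFit, eBayes). The probe set of highest mean stood for a gene, genes with means under the 40th percentile (33.57) were left out, and p-values were adjusted by Benjamini-Hochberg over 14061 genes with a threshold of 0.05. The knockdown was set against the mean of both controls. Values in every array are given for SLC7A11, SLC3A2, SLC7A5, SLC1A5 and members called under siKDM3A, and line and control differences for the largest or called members. The exceptions are the controls of SLC38A7, given as ranges, and SLC7A7 with siKDM3A in A549, given as a mean. From each list of other genes up to 4 of smallest p were taken, with the other called genes beside them. The members and lists were chosen with earlier results of these data known. The alternatives were quantile and median scaling, pseudocounts of 1 and 64, other filters, averaged probe sets, other variance models, a replicate block, single controls and leaving out each array. The code was tested on simulated data. The number of arrays limits the precision. Figures used Python 3.11.15 and matplotlib 3.10.9.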

Additional observations from a re-analysis of the deposited data

Results flagged for a closer look

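Of 82 sets of 4 control arrays (41 tested members in each line), 5 had an array far from the other 3 by Dixon's test at the 95% level, where chance gives about 1 in 20. In SW780 the siFFluc replicate 1 array was that array 3 times. It read 7279.5 for SLC7A5 against 3916 to 4172 on the other control arrays, 8925 for SLC38A1 against 7607 to 7638, and 456 for SLC7A6OS against 621 to 631. In A549 the siEGFP replicate 1 array read 136 for SLC38A2-AS1 against 71.4 to 79.7, and 242 for SLC43A3 against 296 to 308. The response to siKDM3A differed between the lines for 2 members: SW780 minus A549 was 1.19 for SLC7A7 and -0.72 for SLC6A6 on the log2 scale.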

How the results depend on the processing

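Of 1236 values of named genes under alternatives, 1052 kept direction and side of the threshold, 147 lost it, 22 passed it and 15 changed sign. Counts of members called that moved by over 1.5 times were as follows, and the cause was not tested. The difference of response, 2 members, became 1 with quantile normalization, no filter, averaged probe sets, no variance trend, the replicate block or siEGFP as the only control, 0 with siFFluc as the only control and 5 with median scaling. The knockdown in SW780, 8 members, became 5 with averaged probe sets, no variance trend or its own arrays alone, and 4 with siEGFP alone. The knockdown in A549, 6 members, became 1 with no variance trend. The joint count of 8 became 13 with siFFluc alone, where 18.3% of all genes were called, against 18.2% with both controls. The control difference, 3 in each line, became 1 with averaged probe sets in A549 and 1 with its own arrays alone in SW780. Leaving out each array gave 1 to 7 members in A549, 2 to 11 in SW780, 6 to 11 jointly, 0 to 3 for the difference of response, 2 to 3 and 1 to 8 for the controls in A549 and SW780, and 24 to 27 between lines. Signs changed for SLC7A11 in SW780 (0.0098 with quantile normalization, 0.59 with siEGFP alone, and -0.064 to 0.041 on leaving out 1 array, above 0 without siEGFP replicate 2, siFFluc replicate 1 or siKDM3A replicate 1), in A549 (-0.48 with siFFluc alone) and jointly (-0.036 with averaged probe sets, -0.54 with siFFluc alone). They also changed for SLC6A6 in A549 (-0.19 with siFFluc alone), SLC7A5 in A549 (0.014 with median scaling), SLC38A10 in SW780 (0.0085 with averaged probe sets), SLC3A2 in SW780 (0.0037 with siEGFP alone) and in its difference of response (-0.19 with median scaling), and SLC1A5 in its difference of response (0.23 with siEGFP alone, and -0.22 to 0.11 on leaving out 1 array, above 0 without siFFluc replicate 1 of SW780). Equal replicate numbers did not deviate together (correlations of -0.030 to 0.019), so the replicate block, which took the difference of response to 1 member, shares only a number. Signals near the dimness limit of 33.57 limit what the arrays show for the weakest members.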
